A study of Mus musculus with 10 samples.

Results

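The 47 genes described here encode the machinery that copies DNA in S phase and the enzymes that supply its deoxynucleotides. They were looked up by symbol in a table of read counts with 46983 gene identifiers, and all 47 were found and passed the filter on low counts that left 15949 genes for testing. RNA came from CD31+ cells of the heart, isolated with antibody-coated magnetic beads from 10 male wild type C57BL/6J mice, with 1 library per mouse. From 8 weeks of age, 5 mice were kept on a control diet with 11.6% of its energy as fat and 5 on a ketogenic diet with 89.5%, for 14 days, both eaten ad libitum. CD31 is carried by endothelial cells (ECs) and, at lower levels, by some blood cells, so the bead step enriches ECs without being specific to them. The comparison asks whether ketogenic diet altered the RNA levels of the replication machinery in cardiac ECs.

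DNA replication begins in G1 phase, when the origin recognition complex, Cdc6 and Cdt1 load the ring-shaped Mcm2-7 helicase onto DNA, a step called licensing. In S phase, Cdc45 and the GINS complex activate the helicase, primase and polymerase alpha start new strands, and polymerases delta and epsilon extend them behind the sliding clamp PCNA. Ribonucleotide reductase and thymidylate synthase supply deoxynucleotides, and chromatin assembly factors and Dnmt1 restore nucleosomes and DNA methylation. Many of these genes are textbook targets of E2F transcription factors, whereas genes of mitosis are switched on later, through CCAAT and CHR elements in their promoters. In the adult heart, most ECs are quiescent and few are in S phase at any time.

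Promoter sequences are shown because the letters they hold differ between the replication genes and the mitotic genes compared with them below. RefSeq windows on GRCm38.p6, each 300 bases long with 250 before the start site, were present for 39 of the 47 genes. The letters TTTCCCGC, TTTGGCGC, TTTCGCGC or TTTGCCGC, on either strand, were taken as an E2F-type motif. They occurred in 16 of the 39 genes (41.0%), against 2.6% of all 27025 genes with such a window and 6.25% (1 of 16) of mitotic genes. Licensing genes held the motif in 8 of 13 cases, and none of the 4 nucleotide supply genes did. CCAAT, also on either strand, occurred in 64.1% of the replication genes, 41.1% of all genes and 87.5% of the mitotic genes. The CHR-type letters TTTGAA occurred in 15.4% of the replication genes, 20.2% of all genes and 75.0% of the mitotic genes. A match describes letters in the window and not a bound site.

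Stretches of 60 bases upstream of the start site are given for 5 genes with an E2F-type match and for 2 genes, Cdc45 and Rrm1, with a CCAAT box. Each is written 5′ to 3′ on the strand of the gene, with the match it is shown for in capitals (further matches, CCAAT in Mcm6 and CHR-type in Gins3, stay in lower case), and in Mcm5 a pair of matches on opposite strands overlap. The positions are chr8:75109334-75109393 (plus strand) for Mcm5, chr1:128359719-128359778 (minus) for Mcm6, chr8:95633492-95633551 (plus) for Gins3 and chr5:151651209-151651268 (minus) for Rfc3. Those of Pola1, Cdc45 and Rrm1 are chrX:93632260-93632319 (minus), chr16:18811973-18812032 (minus) and chr7:102441624-102441683 (plus).
Mcm5: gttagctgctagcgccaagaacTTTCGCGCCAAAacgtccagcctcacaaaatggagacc
Mcm6: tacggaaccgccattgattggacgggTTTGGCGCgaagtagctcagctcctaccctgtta
Gins3: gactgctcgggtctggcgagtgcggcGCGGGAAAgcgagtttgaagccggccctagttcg
Rfc3: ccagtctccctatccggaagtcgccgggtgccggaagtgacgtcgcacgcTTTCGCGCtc
Pola1: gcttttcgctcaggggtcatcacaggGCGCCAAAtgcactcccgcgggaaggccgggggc
Cdc45: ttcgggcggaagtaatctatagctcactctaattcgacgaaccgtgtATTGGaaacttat
Rrm1: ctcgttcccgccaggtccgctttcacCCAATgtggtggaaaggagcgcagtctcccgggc

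Libraries held 10885154 to 12710861 reads assigned to genes. The endothelial markers Pecam1, Cdh5, Kdr and 7 others summed to 5346 to 5671 CPM (each count scaled to a fixed library total) in control and 5169 to 5696 CPM in ketogenic mice. Markers of other cells were also present. Those of smooth muscle cells and pericytes summed to 2476 to 2677 CPM in control and 2389 to 2668 CPM in ketogenic mice. Fibroblast markers summed to 593.8 to 663.3 against 578.5 to 685.0 CPM, and erythroid markers to 265.8 to 321.1 against 295.4 to 310.8 CPM. Raw counts of some endothelial, pericyte and erythroid markers hardly varied, although library size did. Cdh5 had 7356 to 7571 reads, Rgs5 7457 to 7691 and Hba-a1 97 to 98, whereas Kdr had 7281 to 9501. Normalized Cdh5 was 7945 in control mouse 1, the smallest library, and 6898 in ketogenic mouse 5, the largest. Sums with such genes depend on library size and cannot show whether these levels differed between diets. They also rest on different genes for each cell type, so they do not rank the cell types by abundance. Why these counts varied so little was not tested. Some other marker sums differed on average between the diets. All 10 cardiomyocyte markers were higher with ketogenic diet (584.8 to 750.5 CPM against 688.1 to 1004 CPM, 8 of 10 at an unadjusted p under 0.05). At this limit 8.57% of all genes tested were higher. All 5 platelet markers were lower (425.8 to 695.3 against 195.0 to 501.5 CPM), as were 7 of 8 macrophage markers (219.2 to 782.9 against 200.9 to 389.3 CPM). The macrophage sums of the diets overlapped, and apart from control mouse 1 the control mice reached at most 345.0 CPM. The summed lymphocyte markers were also lower (201.2 to 296.3 against 153.5 to 198.0 CPM), although 4 of the 8 genes were higher. No marker was at 3 reads or fewer in every mouse. In bulk samples such as these, fewer cells of a type and less RNA per cell cannot be told apart.

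Replication genes were expressed over a wide range, from 10 to 2827 reads per mouse. On the deposited RPKM scale (reads per gene length and library total), their mean levels spanned 0.214 to 45.6 RPKM with a median of 6.79 RPKM, against 5.26 RPKM for all genes tested. The gene lengths behind these RPKM values differ from the exon lengths of GENCODE M21, by a factor of 0.346 to 2.89 for these genes. An order of levels is therefore given only where it also held for CPM per kilobase of M21 exons. The catalytic polymerase epsilon subunit Pole (0.214 RPKM), Mcm10 (0.252 RPKM) and Fen1 (0.291 RPKM) were among the 5 lowest on both scales, and the helicase subunit Mcm4 (37.8 RPKM) was among the 4 highest on both. Within the GINS complex, whose 4 subunits are assembled together, Gins4 (25.9 RPKM) stood far above Gins1 (1.34 RPKM) and Gins2 (0.857 RPKM), which also held on the M21 scale at 26.2, 1.98 and 1.74 CPM per kilobase.

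No replication gene passed the threshold of an adjusted p under 0.05 (edgeR, adjusted over all genes tested), whereas 1.34% of all genes tested did. DESeq2 also called 0 of the 47, against 795 of the 32378 genes in its fit. At an unadjusted p under 0.05, 9 of the 47 (19.1%) were higher with ketogenic diet, namely Mcm5, Orc5, Orc6, Cdc45, Gins2, Rfc4, Prim1, Lig1 and Rrm1, against 8.57% of all genes tested. Only Pola2 (1 of 47, 2.13%) was lower at this limit, against 9.26% of all genes tested. The log2 fold change was above 0 in 37 of the 47 genes (78.7%), against 48.6% of all genes tested. Its median was 0.12, against −0.01 for all genes tested. For single genes, the half-width of the 95% interval had a median of 0.20. In 37 genes that interval included 0, and in 36 its upper bound lay below 0.5. All 5 ketogenic mice lay above all 5 control mice for 2 genes, Gins2 and Prim1, against 2.4% of all genes tested, and for 0 genes did they all lie below, against 1.94%.

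**Figure D1:**
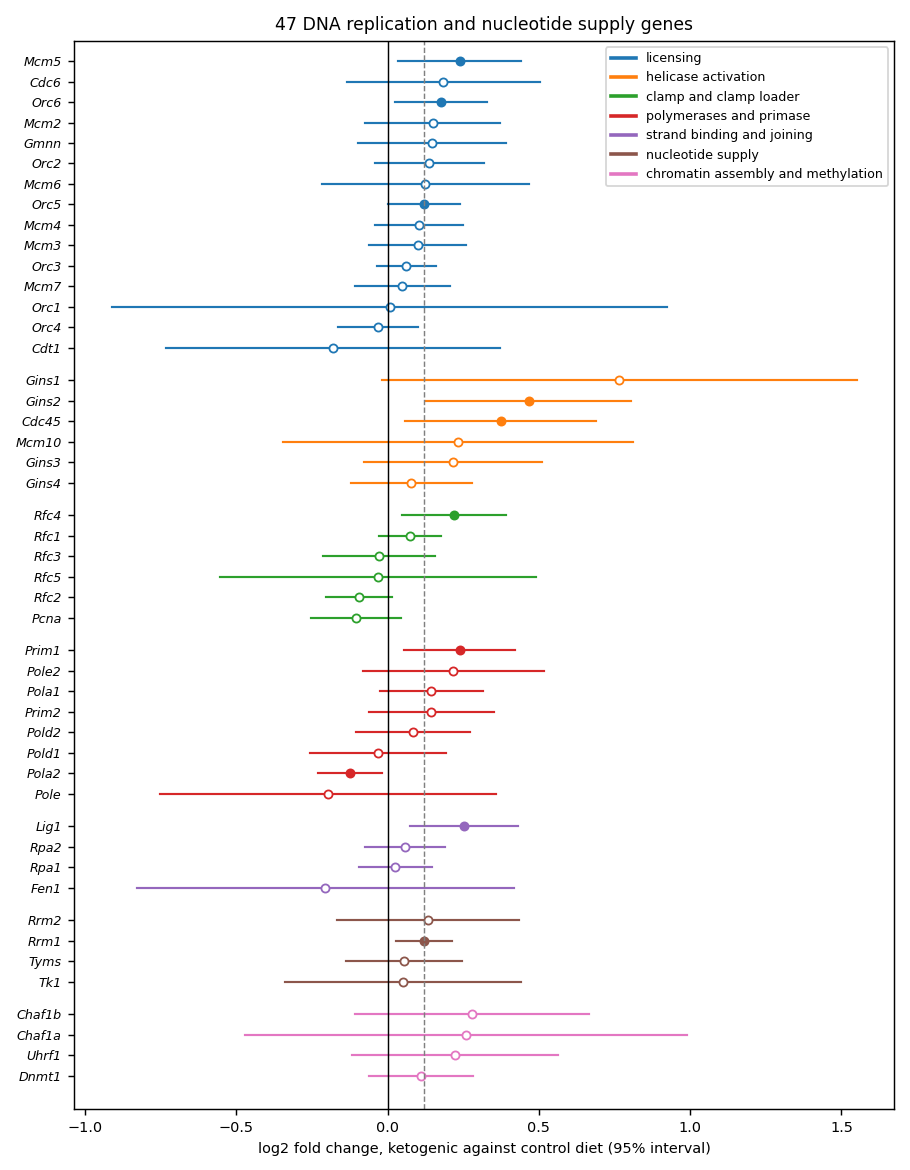
Log2 fold change of each of the 47 genes, ketogenic against control diet, with its 95% interval (horizontal axis) and the genes grouped by step (vertical axis, colours). Filled points have an unadjusted edgeR p under 0.05, the dashed line marks the median of 0.12, and most intervals cross 0 while 37 of the 47 points lie to its right.

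Licensing genes were mostly slightly higher with ketogenic diet. Of 15 genes, 13 had a log2 fold change above 0 (86.7%, against 48.6% of all genes tested). The median was 0.12, and the values ran from −0.18 for Cdt1, which brings Mcm2-7 to origins, to 0.24 for Mcm5. None passed the adjusted threshold, and 3 had an unadjusted p under 0.05 in the higher direction.

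Mcm5, a subunit of the helicase ring, had normalized read counts of 810, 634, 679, 669 and 828 in control mice 1 to 5 and of 818, 798, 821, 1021 and 812 in ketogenic mice 1 to 5. The groups overlapped, with control mice 1 and 5 at the level of the ketogenic mice and ketogenic mouse 4 alone above all others. Its log2 fold change was 0.24 ± 0.09 (SE, n = 5 per diet, adjusted p = 0.207, two-sided exact permutation p = 0.0873). Mcm4, another subunit of the ring, had counts of 1468, 1432, 1454, 1596 and 1666 in control mice and of 1432, 1685, 1570, 1838 and 1657 in ketogenic mice. Here the ranges lay largely within each other, with a log2 fold change of 0.10 ± 0.07 (adjusted p = 0.44, exact permutation p = 0.254). The remaining ring subunits gave 0.15 (Mcm2), 0.10 (Mcm3), 0.12 (Mcm6) and 0.05 (Mcm7), so all 6 subunits of the ring had a positive estimate and none was called.

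In the origin recognition complex, Orc6 was measured at 770, 731, 769, 836 and 864 normalized reads in control mice and at 861, 938, 984, 925 and 784 in ketogenic mice. Ketogenic mice 2, 3 and 4 exceeded every control mouse, and ketogenic mice 1 and 5 lay within the control range (log2 fold change 0.18 ± 0.07, adjusted p = 0.208, exact permutation p = 0.0397). For Orc5, counts were 934, 850, 836, 905 and 915 in control and 905, 903, 992, 995 and 1031 in ketogenic mice. Again 3 ketogenic mice exceeded all controls (log2 fold change 0.12 ± 0.05, adjusted p = 0.272, exact permutation p = 0.0794). Estimates for Orc1 to Orc4 were 0.01, 0.14, 0.06 and −0.03. The loader Cdc6 had a log2 fold change of 0.18 and geminin (Gmnn), which restrains Cdt1, of 0.15, both with intervals that included 0.

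Helicase activation held the largest differences of the replication genes. All 6 genes had a log2 fold change above 0, against 48.6% of all genes tested. The median of the step was 0.30 and its range 0.08 to 0.77. Most of the 6 are low genes, in which counting error widens the intervals.

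Cdc45, which joins Mcm2-7 and GINS in the active helicase, had 170, 160, 143, 121 and 152 normalized reads in control mice and 241, 157, 151, 205 and 212 in ketogenic mice. Ketogenic mice 1, 4 and 5 lay above all controls, and mice 2 and 3 among them (log2 fold change 0.37 ± 0.14, adjusted p = 0.203, exact permutation p = 0.0794). Gins2 had 76.7, 84.9, 68.3, 47.4 and 71.4 normalized reads in control and 87.8, 85.7, 96.2, 104 and 108 in ketogenic mice. These groups did not overlap, although control mouse 2 and ketogenic mouse 2 differed by about 1 read. The log2 fold change of Gins2 was 0.47 ± 0.16 (adjusted p = 0.15), and its exact permutation p of 0.00794 is the smallest that 5 against 5 mice can give. Of its annotated exon bases on chr8:120578633-120589304, 67.3% are shared with Gse1 on the other strand, and the library kit does not record strand, so reads of these genes cannot be told apart there.

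Gins1 gave the largest estimate of all 47 genes, a log2 fold change of 0.77 ± 0.36 with a 95% interval of −0.02 to 1.55 (adjusted p = 0.292, exact permutation p = 0.103). Its normalized counts were 25.9, 26.7, 10.4, 41.1 and 25.1 in control and 30.6, 23.0, 72.7, 52.5 and 41.0 in ketogenic mice, so the groups overlapped and ketogenic mouse 3 was the highest. The abundant subunit Gins4 had counts of 410, 444, 390, 421 and 334 in control and 402, 377, 420, 423 and 488 in ketogenic mice. Its log2 fold change was 0.08 ± 0.09 (adjusted p = 0.691, exact permutation p = 0.444), with an upper bound of 0.28. Subunits of this one complex thus had estimates from 0.08 to 0.77, which were not tested against each other. Gins3 (0.22) and Mcm10 (0.23), which helps to open the origin, lay between.

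Clamp and clamp loader genes lay close to 0. Of the 6 genes, 2 had a log2 fold change above 0 (33.3%, against 48.6% of all genes tested), and the median was −0.03. The sign of this median was not stable, being 0.04 without control mouse 2, 0.0125 without ketogenic mouse 3 and 0.0087 without ketogenic mouse 4. Pcna, the sliding clamp and a common proliferation marker, was at 623 normalized reads in control and 580 in ketogenic mice on average (log2 fold change −0.10 ± 0.07, adjusted p = 0.447). Its 95% interval ran from −0.25 to 0.04. Pcna also has 2 named pseudogenes, to which some reads could be split.

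Rfc4, a small subunit of the clamp loader, was the exception, at 278, 282, 246, 309 and 277 normalized reads in control and 291, 340, 333, 335 and 323 in ketogenic mice. All ketogenic mice but mouse 1 exceeded every control (log2 fold change 0.22 ± 0.08, adjusted p = 0.176, exact permutation p = 0.0159). On the M21 annotation 12.7% of its exon bases lie opposite Eif4a2. The large subunit Rfc1 was at 2007, 1962, 2112, 2193 and 2162 reads in control and 2053, 2100, 2363, 2190 and 2280 in ketogenic mice, with ranges that overlapped (log2 fold change 0.07 ± 0.05, adjusted p = 0.438, exact permutation p = 0.175). Rfc2 (−0.09), Rfc3 (−0.03) and Rfc5 (−0.03) completed the loader.

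Among the 8 genes for polymerases and primase, 5 had a log2 fold change above 0 (62.5%, against 48.6% of all genes tested). The median was 0.11, with a range of −0.20 (Pole) to 0.24 (Prim1). The 4 subunits of the polymerase alpha and primase complex, which lays down the RNA-DNA primer, had estimates of both signs, which were not tested against each other. Prim1, the catalytic primase subunit at chr10:128015168-128030037, had 367, 325, 370, 332 and 354 normalized reads in control and 376, 380, 385, 473 and 447 in ketogenic mice. Every ketogenic mouse exceeded every control mouse, 3 of them by a narrow margin (log2 fold change 0.24 ± 0.08, adjusted p = 0.169, exact permutation p = 0.00794).

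Pola2, the accessory subunit of polymerase alpha, went the other way, with 1592, 1599, 1596, 1522 and 1650 reads in control and 1409, 1434, 1351, 1487 and 1616 in ketogenic mice. Ketogenic mice 1 to 4 lay below every control, and mouse 5 within the control range (log2 fold change −0.13 ± 0.05, adjusted p = 0.205, exact permutation p = 0.0397). The other subunits, Pola1 and Prim2, each had an estimate of 0.14. Polymerase delta gave −0.03 (Pold1) and 0.08 (Pold2), and the small epsilon subunit Pole2 0.22, each with an interval that included 0.

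Strand binding and joining genes were led by Lig1, the ligase that seals Okazaki fragments, which had the lowest adjusted p of the 47 genes. Its normalized counts were 487, 439, 466, 446 and 576 in control and 556, 544, 561, 639 and 580 in ketogenic mice. Control mouse 5 reached the ketogenic range, and the other control mice lay below all ketogenic mice (log2 fold change 0.25 ± 0.08, adjusted p = 0.142, exact permutation p = 0.0317). Rpa1, the large subunit of the single-strand binding protein, had 2448, 2295, 2558, 2535 and 2764 reads in control and 2441, 2394, 2734, 2747 and 2513 in ketogenic mice. The groups covered the same range (log2 fold change 0.03 ± 0.06, adjusted p = 0.841, exact permutation p = 0.683). Rpa2 gave 0.06, and the flap nuclease Fen1 −0.21 ± 0.29 from at most 34 reads per mouse, with 78.8% of its exon bases opposite an antisense gene.

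All 4 nucleotide supply genes had a log2 fold change above 0, against 48.6% of all genes tested. The differences were small, with a median of 0.09. Rrm1, the large subunit of ribonucleotide reductase, had 1795, 1806, 1717, 1937 and 1793 normalized reads in control and 1950, 1901, 1903, 2120 and 1958 in ketogenic mice. Control mouse 4 was the only control within the ketogenic range (log2 fold change 0.12 ± 0.04, adjusted p = 0.175, exact permutation p = 0.0238). Its partner Rrm2, the subunit made in S phase, had 644, 534, 553, 345 and 547 reads in control and 561, 619, 495, 651 and 549 in ketogenic mice. The low control mean came from mouse 4, and the other mice overlapped throughout (log2 fold change 0.13 ± 0.14, adjusted p = 0.65, exact permutation p = 0.429). Without control mouse 4 and ketogenic mouse 4, the estimate for Rrm2 was −0.03 and the median of the step −0.03. Thymidylate synthase Tyms and thymidine kinase Tk1, which furnish thymidine nucleotides, both gave 0.05.

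Chromatin assembly and methylation genes were all above 0 (against 48.6% of all genes tested), with a median log2 fold change of 0.24. At an unadjusted p under 0.05, 0 of the 4 were higher (against 8.57% of all genes tested) and 0 lower (against 9.26%). Chaf1b, a subunit of chromatin assembly factor 1, had 167, 111, 107, 193 and 135 normalized reads in control and 143, 195, 160, 212 and 154 in ketogenic mice. The ranges overlapped (log2 fold change 0.28 ± 0.18, adjusted p = 0.438, exact permutation p = 0.167). Dnmt1, the maintenance DNA methyltransferase, had 1961, 1697, 1943, 1584 and 2175 reads in control and 1926, 2020, 2018, 2235 and 1911 in ketogenic mice, and control mice 2 and 4 were the lowest of all (log2 fold change 0.11 ± 0.08, adjusted p = 0.488, exact permutation p = 0.222). Uhrf1, which guides Dnmt1 to newly copied DNA, gave 0.22, and Chaf1a 0.26 from few reads. Of the exon bases of Chaf1a, 52.5% are shared with Ubxn6 on the other strand, so reads of these genes cannot be told apart there. With control mouse 4 and ketogenic mouse 4 left out, the median of the step was 0.05.

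**Figure D2:**
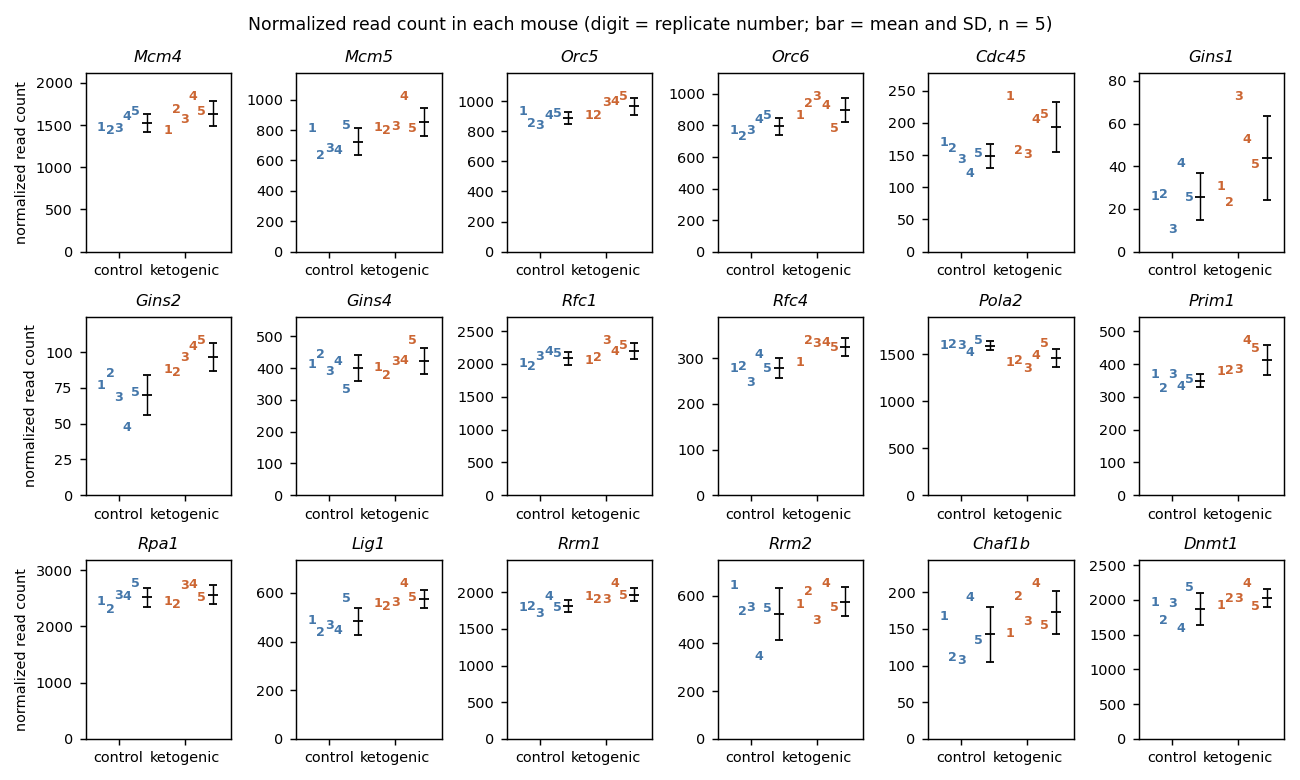
Normalized read count (vertical axis, from 0) in each mouse for the 18 genes given in full, with control mice in blue, ketogenic mice in orange and digits for the replicate number. Bars show the mean and SD of 5 mice, and only Gins2 and Prim1 show no overlap between the diets.

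A score per mouse, the mean over the 47 genes of the z-score of log2 CPM across the 10 mice, describes how the small differences added up. It was −0.04, −0.32, −0.44, −0.43 and −0.11 in control mice 1 to 5 and 0.07, 0.05, 0.13, 0.73 and 0.37 in ketogenic mice 1 to 5. Every ketogenic mouse lay above every control mouse, although control mouse 1 and ketogenic mouse 2 were close to each other. Summed over the 47 genes, expression was 2626, 2571, 2560, 2597 and 2677 CPM in control and 2705, 2683, 2720, 2863 and 2771 CPM in ketogenic mice, a difference of 5.45%. No test was made of these scores, since the genes were chosen with results of these data known.

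Scores by step were less uniform. The licensing score separated the diets, from −0.46 to −0.12 in control and from −0.00219 to 0.81 in ketogenic mice, whereas the scores of the 6 other steps overlapped. Ketogenic mouse 4 stood out, with the highest count of its diet in 19 of the 47 genes (40.4%, against 19.3% of all genes tested). Control mouse 4 had the lowest of its diet in 18 of the 47 (38.3%, against 22.5%). With both left out, and the score computed anew, the remaining control mice reached at most 0.05 and the remaining ketogenic mice at least 0.12. The number of genes at an unadjusted p under 0.05 in the higher direction was then 5 (10.6%, against 7.53% of all genes tested), and 32 of the 47 had a log2 fold change above 0.

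**Figure D3:**
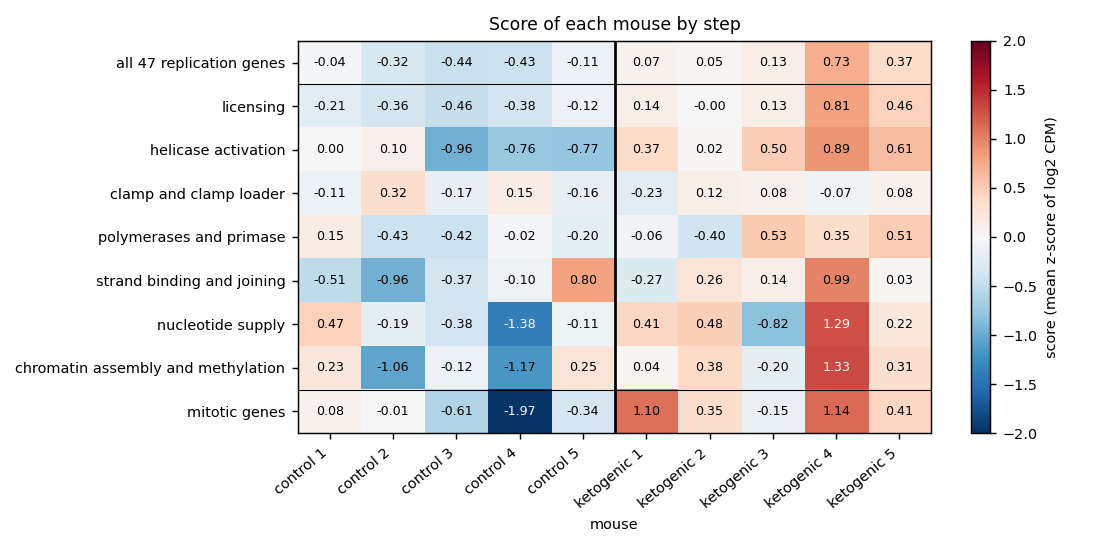
Score of each mouse (columns, control left and ketogenic right of the line) for the 47 genes, their 7 steps and the mitotic genes (rows), as the mean z-score of log2 CPM, coloured from blue (low) to red (high). Ketogenic mouse 4 is high in most rows, control mouse 4 is low in nucleotide supply, chromatin and mitotic genes, and clamp scores of the diets overlap.

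Cardiomyocyte markers moved in the same direction as the replication genes. With a cardiomyocyte marker score as a covariate, 3 replication genes (6.38%) were higher at an unadjusted p under 0.05, against 5.76% of all genes tested, so the share was close to that of all genes. These were Cdc45 and Gins2, of the 9 named above, and Mcm3. The log2 fold change was above 0 in 37 genes, of which 33 were above 0 without the covariate too, and 0 genes passed the adjusted threshold. With a macrophage score as a covariate, 13 were higher at the unadjusted limit (27.7%, against 7.91% of all genes tested) and Mcm5 passed the adjusted one (log2 fold change 0.33, adjusted p = 0.04995). Ketogenic mouse 4 also had the highest macrophage marker sum of its diet, 389.3 CPM, and control mouse 1 the highest of all, 782.9 CPM. With a lymphocyte score as a covariate, 10 were higher at the unadjusted limit (21.3%, against 7.68% of all genes tested) and none passed the adjusted one. The log2 fold change was then above 0 in 37 genes. The cardiomyocyte score itself differed between the diets, with a mean of −0.63 in control and 0.63 in ketogenic mice. With it, 19 genes of the whole table were called, against 213 without. A fit with a covariate that varies with diet cannot separate the diet from the cell content. The part of other cells in the result was not tested.

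The wider pathway was examined in 49 other replication genes, of which 48 were tested. Of these, 32 had a log2 fold change above 0 (66.7%, against 48.6% of all genes tested), with a median of 0.06. At an unadjusted p under 0.05, 6 were higher (12.5%, against 8.57% of all genes tested) and 3 lower (6.25%, against 9.26%). None of the 48 passed the adjusted threshold. Among fork factors (6 of 11 above 0), the fork protection partners Tipin and Timeless gave 0.18 and −0.09, and the checkpoint mediator Clspn 0.54 (adjusted p = 0.227, 0.324 and 0.365). Among other polymerase, loader and maturation subunits, 12 of 14 were above 0, including Rpa3 (0.21, adjusted p = 0.218) and the nuclease Dna2 (0.39, adjusted p = 0.504).

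Top1, the topoisomerase that relieves torsion ahead of the fork, was lower. It had 2813, 2773, 2776, 2790 and 2789 normalized reads in control and 2530, 2691, 2342, 2567 and 2543 in ketogenic mice, with no overlap (log2 fold change −0.14 ± 0.04, adjusted p = 0.0804, exact permutation p = 0.00794). DESeq2 gave it an adjusted p of 0.043, and edgeR one of 0.0324 without ketogenic mouse 2, in a range of 0.0324 to 0.503 over all alternatives. Of the other nucleotide enzymes 8 of 12 were above 0, led by the pyrimidine kinase Cmpk1 (0.18, adjusted p = 0.15), mitochondrial thymidine kinase Tk2 (0.34, adjusted p = 0.192) and deoxycytidine kinase Dck (0.29, adjusted p = 0.212), which work in nucleotide salvage or phosphorylation. Other chromatin factors were split, 6 of 11 being above 0. The histone chaperone Asf1a was higher (0.32, adjusted p = 0.195), while Slbp, which binds histone mRNA, and the histone chaperone Nasp were lower (−0.21 and −0.17, adjusted p = 0.179 and 0.235). These values did not pass the threshold.

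Regulators of S phase had medians close to 0 and estimates of both signs, more of them above 0 than below. In the E2F and retinoblastoma family, 9 of 13 genes were above 0 (69.2%, against 48.6% of all genes tested). The median was 0.04, in a range of −0.19 to 0.61. The repressors Rbl2 (0.29, adjusted p = 0.151) and E2f6 (0.28, adjusted p = 0.177) were above 0, and the E2F partner Tfdp2 was at −0.19 (adjusted p = 0.388). Of 9 S phase checkpoint genes, 6 were above 0 (66.7%), with a median of 0.02 and a range of −0.63 to 0.26. Atrip, the partner of the checkpoint kinase ATR, was at 73.4, 84.9, 64.2, 67.4 and 93.5 normalized reads in control and at 47.4, 70.1, 41.2, 43.7 and 46.5 in ketogenic mice, with only ketogenic mouse 2 in the control range (log2 fold change −0.63 ± 0.18, adjusted p = 0.101, exact permutation p = 0.0238). Without ketogenic mouse 2 Atrip passed the adjusted threshold (−0.78, adjusted p = 0.0281), and over all alternatives its adjusted p ran from 0.0281 to 0.569, the highest with the cardiomyocyte covariate. Of the checkpoint clamp, Hus1 was at 0.26 (adjusted p = 0.104 by edgeR and 0.0291 by DESeq2) and Rad9a at −0.09 (adjusted p = 0.347). Among replication genes with a promoter window, the median log2 fold change was 0.12 both in the 16 with an E2F-type motif and in the 23 without.

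Mitotic genes had larger log2 fold changes than replication genes. All 20 were tested, and all 20 had a log2 fold change above 0, against 48.6% of all genes tested. The values ran from 0.36 to 0.92, and the median was 0.55 against 0.12 for the replication genes. It was 1.01 with the cardiomyocyte covariate and 0.36 with both mice numbered 4 left out. At an unadjusted p under 0.05, 12 of the 20 were higher, and 0 passed the adjusted threshold. The spindle factor Tpx2 had 257, 226, 226, 124 and 161 normalized reads in control and 435, 308, 273, 323 and 340 in ketogenic mice (log2 fold change 0.76 ± 0.19, adjusted p = 0.0699, exact permutation p = 0.00794). The groups did not overlap, nor did they for the kinetochore protein Cenpf (0.80, adjusted p = 0.0705) or cyclin B1, Ccnb1 (0.89, adjusted p = 0.0721). Of all genes tested, 2.4% had all ketogenic mice above all control mice. By DESeq2, Tpx2, Cenpf and Ccnb1 passed the adjusted threshold, at 0.00222, 0.00262 and 0.0186, and by edgeR Ccnb1 did so without control mouse 5 (adjusted p = 0.0487). The mitotic score was lowest in control mouse 4 (−1.97) and highest in ketogenic mice 4 and 1 (at least 1.10). Ketogenic mouse 1 was thus among the highest in mitotic genes but close to the control mice in the replication score (0.07). The difference between the lists was not tested.

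**Figure D4:**
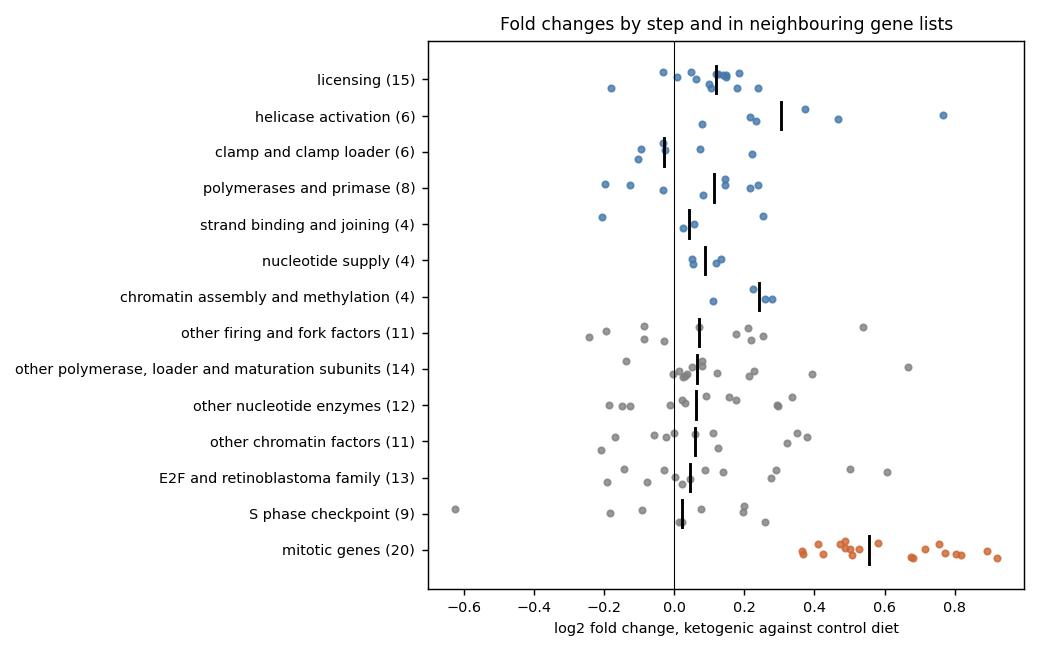
Log2 fold change, ketogenic against control diet (horizontal axis), of each tested gene by list, with the number tested in brackets and a black bar at the median. The medians of the 7 steps of replication (blue) run from −0.03 to 0.30 and those of the other replication and regulator lists (grey) from 0.02 to 0.07, while all 20 mitotic genes (orange) lie between 0.36 and 0.92, a range that also holds single genes of other lists such as Gins1 and Clspn.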

How the data were processed

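RNA of CD31+ cardiac cells was sequenced as single reads of 50 bases from 10 ng input per mouse. The authors deposited raw read counts per gene and RPKM values computed by the authors from the same counts, with gene lengths that differ from GENCODE M21. Per the labels, the processing notes of the submitters name bcl2fastq 2.17.1.14, STAR 2.3, HTSeq 0.6.0 and build mm10. Columns were assigned to diet and replicate by their names. Between 10885154 and 12710861 reads were counted per mouse, and 23131 to 24124 genes had a read. All pairs of libraries within a diet differed by more than counting noise.

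Of 46983 identifiers, 46488 matched GENCODE M21 (GRCm38) without regard to version, 37902 with it. Ketogenic and control mice were compared in R 4.3.3 by edgeR 4.0.16 (TMM, filterByExpr, quasi-likelihood F-test, Benjamini-Hochberg adjustment over 15949 genes). The SE was taken from the log2 fold change and F. Normalized counts are TMM-scaled, and log2 CPM used a prior count of 2. Exact permutation tests of log2 CPM ran over all regroupings into 5 and 5 mice, two-sided. These p-values are unadjusted.

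The 47 genes and all other lists were chosen with earlier results of these data known. Genes given in full are those with an unadjusted p under 0.05 and, in each step, those with the largest fold change and the highest RPKM. Of other lists, the 3 with the smallest p are named. Exons of 18 of the 47 genes overlap another annotated gene. Alternatives were DESeq2 1.42.0, limma 3.58.1 on log2 RPKM plus 1 or plus 0.1, other normalization factors, other filters, marker scores as covariates, a replicate block and leaving out each mouse. The macrophage and lymphocyte covariates and leaving out both mice numbered 4 were chosen after seeing the data.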

Additional observations from a re-analysis of the deposited data

Results flagged for a closer look

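Of 54 groups of 5 mice examined by Dixon's test (the 18 genes given in full, the scores and the summed CPM, by diet), 2 held a mouse far from the others, where chance gives about 2.7, or 1 in 20. Both were ketogenic mouse 4. For Mcm5 its normalized count of 1021 was the highest of its diet, with the nearest mouse at 820.8 and a gap of 0.897 of the range. For Rrm1 it had 2120, with the nearest mouse at 1958 and a gap of 0.738 of the range, where 0.71 is the critical value.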

How the results depend on the processing

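Counts, medians and the genes given in full or named from other lists were computed under 23 alternatives, the score under 14 and the summed CPM under 13. Estimates of the remaining genes enter the counts and medians and are not given singly. The median log2 fold change of the 47 genes ran from 0.09 to 0.13, and that of helicase activation from 0.21 to 0.44. No replication gene passed the adjusted threshold except Mcm5 with the macrophage covariate, where 1 gene passed. The count higher at an unadjusted p under 0.05 was 3 with the cardiomyocyte covariate (6.38%, against 5.76% of all genes tested). It was 5 with both mice numbered 4 left out (10.6%, against 7.53%), and 6 to 11 with 1 mouse left out (12.8% to 23.4%, against 7.50% to 9.54%). The lower count was 2 with upper quartile factors, 0 with the macrophage or the lymphocyte covariate, and 0 to 2 with 1 mouse left out (0 without control mouse 2 or 5 or ketogenic mouse 1 or 3). The median of nucleotide supply was 0.20 with the cardiomyocyte covariate and −0.0281 without both mice numbered 4, where that of chromatin genes was 0.051. The clamp median was −0.0776 to 0.0383 with 1 mouse left out and 0.0064 without both mice numbered 4, and that of strand binding and joining was −0.0294 with the cardiomyocyte covariate. Single genes given in full whose estimate changed sign were Rfc1 (−0.0332) and Rpa1 (−0.0921) with the cardiomyocyte covariate, Rpa1 without control mouse 2 (−0.0011, in a range of −0.0011 to 0.0617 with 1 mouse left out) and Rrm2 without both mice numbered 4 (−0.0337). The cause was not tested. No pairing of the mice by replicate number was seen (same-number correlations −0.134 to 0.0936, no mouse correlating best with its own number). These correlations cannot exclude a shared litter or preparation. The paper describes the control mice as littermates, and the labels give no litter. With the replicate block, 7 replication genes were higher at the unadjusted limit (14.9%, against 7.9% of all genes tested) and 1 lower (against 9.13% of all genes tested). With this block 0 passed the adjusted limit. Genes called over the whole table numbered 213 in edgeR, 795 in DESeq2, 19 with the cardiomyocyte covariate, 113 with the lymphocyte covariate or the replicate block, and 73 without both mice numbered 4. Depth limits the genes with the fewest reads, such as Gins1 (10 to 74 per mouse), most.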
